A study of Mus musculus with 6 samples.

Results

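Nuclear pseudogenes that copy mitochondrial genes were measured in areas of mouse heart that differed in Atf3 protein. They are the 10 rows of the UMI table whose symbols are *Gm10222*, *Gm10925*, *Gm13339*, *Gm13340*, *Gm13341*, *Gm28437*, *Gm28438*, *Gm28439*, *Gm28661* and *Gm29216*. They lie on chromosomes 1 and 2 and were chosen because they hold UMIs, so their abundance is a description and carries no test. The table lists 17145 genes. The 10 copies held 100175 of its 855552 UMIs. A UMI, or unique molecular identifier, is a random tag that lets the amplified reads of 1 cDNA molecule be counted as 1.

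All 6 libraries came from FS6KD mice, a model of mitochondrial cardiomyopathy in which a gene trap lowers *Ndufs6*, a subunit of respiratory complex I, mainly in heart. The mice carry a mixed C57BL/6J and 129/Ola background and the labels give them as female. No age is given for these sections, and control hearts without the knockdown were not analysed here. Areas of fresh frozen sections were stained with an anti-Atf3 antibody and sorted into Atf3 high (n = 3) and Atf3 low (n = 3), so the areas were chosen by protein and not by RNA. By the paper's account both kinds were cardiomyocytes inside clusters positive for Atf3, so Atf3 low does not stand for heart without Atf3. Photo-isolation chemistry then uncaged primers with light in the chosen areas only, and CEL-seq2 libraries were made from them. The study describes the libraries of a group as biological replicates, and the labels do not tie an area to a mouse.

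Nuclear copies of mitochondrial DNA, often called NUMTs, arise when pieces of the mitochondrial genome are inserted into a chromosome. They keep the order of the mitochondrial genes, but the nuclear and mitochondrial genetic codes differ and most copies are held to be pseudogenes that give no protein. A recent copy is nearly identical to its source, and a sequencing read from an abundant mitochondrial mRNA can then match the copy as well. Heart muscle is rich in mitochondrial mRNA. The parent genes here encode subunits of complex I (*mt-Nd2*, *mt-Nd3*, *mt-Nd4*, *mt-Nd4l*), of cytochrome c oxidase (*mt-Co1*, *mt-Co2*, *mt-Co3*) and of the ATP synthase (*mt-Atp6*).

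The copies formed 2 blocks. On chromosome 1 of GRCm38, 7 copies lay side by side between 24611535 and 24616197 on the minus strand, a span of 4663 bases. This block followed the mitochondrial genome from position 6390 to 11042, from the last part of *mt-Co1* through *mt-Co2*, *mt-Atp6*, *mt-Co3*, *mt-Nd3* and *mt-Nd4l* into *mt-Nd4*. It differed from the mitochondrial genes by 2 substitutions over 4149 bases of annotated copies, with identities of at least 99.71%. On chromosome 2, 3 copies lay between 22587291 and 22590533 on the minus strand, a span of 3243 bases, and followed mitochondrial positions 4442 to 7696, from *mt-Nd2* through *mt-Co1* to *mt-Co2*. These had diverged further, with 70 substitutions over 2727 bases and identities from 95.906 to 97.605%. The chromosome 1 block held 69147 UMIs and the chromosome 2 block 31028. All 10 are annotated as unprocessed pseudogenes.

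Of the chromosome 1 copies, *Gm28661* (copy of *mt-Co2*, 681 bases), *Gm10925* (*mt-Atp6*, 678 bases), *Gm28437* (*mt-Co3*, 783 bases), *Gm10222* (*mt-Nd4l*, 294 bases) and *Gm28439* (*mt-Nd4*, 876 bases) were identical to their parent over their whole length. Letters alone cannot tell a read of these 5 copies from a read of the parent. *Gm28438* carried 1 substitution relative to *mt-Nd3*, T3C, counted from 1 at the first base of *mt-Nd3*. *Gm29216* carried A1066T relative to *mt-Co1*, counted likewise, and 9 further bases at its 5′ end that did not align. The change in *Gm28438* lay 342 bases from its 3′ end, and that in *Gm29216* lay 479 bases away. CEL-seq2 primes from the poly(A) tail and reads near the 3′ end of a transcript.

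The start of *Gm28438* (chr1:24613059-24613119, minus strand) is shown beside that of *mt-Nd3* (chrM:9459-9519, plus strand) because it holds the only base that separates them. Sequences are GENCODE transcripts of GRCm38, written 5′ to 3′, and capitals mark the bases that differ between the sequences shown.
mt-Nd3: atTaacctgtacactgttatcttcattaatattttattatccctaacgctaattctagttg
Gm28438: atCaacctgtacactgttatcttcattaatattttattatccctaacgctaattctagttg

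The 3′ ends of the *mt-Co2* family are shown because *Gm13341* and *Gm28661* copy the same gene from different chromosomes. They are the last 120 bases of *mt-Co2* (chrM:7577-7696, plus strand) and *Gm13341* (chr2:22587291-22587410, minus strand), and the last 117 of *Gm28661* (chr1:24614885-24615001, minus strand), whose annotation stops 3 bases earlier. Capitals mark where *Gm13341* and *mt-Co2* differ.
mt-Co2: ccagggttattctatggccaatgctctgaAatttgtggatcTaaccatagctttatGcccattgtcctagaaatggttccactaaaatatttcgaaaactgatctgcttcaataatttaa
Gm28661: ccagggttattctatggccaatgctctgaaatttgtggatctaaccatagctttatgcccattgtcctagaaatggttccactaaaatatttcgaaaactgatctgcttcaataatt
Gm13341: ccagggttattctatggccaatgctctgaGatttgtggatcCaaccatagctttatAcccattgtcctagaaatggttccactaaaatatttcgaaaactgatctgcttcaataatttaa

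*Gm13341* (672 bases) had 16 substitutions and a gap of 12 bases relative to *mt-Co2*, and its last 63 bases carried none of them. Its longest stretch identical to the parent was 173 bases. *Gm13340* (1545 bases) had 37 substitutions relative to *mt-Co1*, the nearest 39 bases from the 3′ end. *Gm13339* copied positions 529 to 1038 of *mt-Nd2* with 17 substitutions, the nearest 4 bases from the 3′ end. The ends of the *mt-Nd2* pair (chrM:4832-4951 and chr2:22590024-22590143) show how few bases a read near the tail has to separate them.
mt-Nd2: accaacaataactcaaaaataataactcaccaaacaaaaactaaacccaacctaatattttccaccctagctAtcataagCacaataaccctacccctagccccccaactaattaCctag
Gm13339: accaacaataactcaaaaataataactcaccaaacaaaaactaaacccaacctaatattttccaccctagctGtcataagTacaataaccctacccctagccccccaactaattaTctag

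The ends of the *mt-Co1* family (*mt-Co1* at chrM:6753-6872, *Gm29216* at chr1:24615706-24615825 and *Gm13340* at chr2:22588103-22588222) show 3 bases that separate the chromosome 2 copy from the other members and none that separates *Gm29216* from the parent.
mt-Co1: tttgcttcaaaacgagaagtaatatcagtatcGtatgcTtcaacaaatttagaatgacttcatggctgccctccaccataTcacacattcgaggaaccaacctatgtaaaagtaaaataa
Gm29216: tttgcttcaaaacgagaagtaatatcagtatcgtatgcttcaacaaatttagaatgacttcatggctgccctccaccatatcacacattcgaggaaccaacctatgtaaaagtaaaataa
Gm13340: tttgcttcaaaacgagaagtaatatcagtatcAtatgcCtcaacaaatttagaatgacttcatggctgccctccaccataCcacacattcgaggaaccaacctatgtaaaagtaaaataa

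Every window of 50 bases was the same as the parent in the 5 identical copies. The share was 98.986% in *Gm28438* and 97.065% in *Gm29216*. It was 35.955% in *Gm13341*, 27.473% in *Gm13340* and 17.57% in *Gm13339*. How reads that match more than 1 gene were assigned is not given in the sources used here, so the values below are UMIs assigned to a copy's row. They do not show that the chromosomal copy was transcribed.

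**Figure D1:**
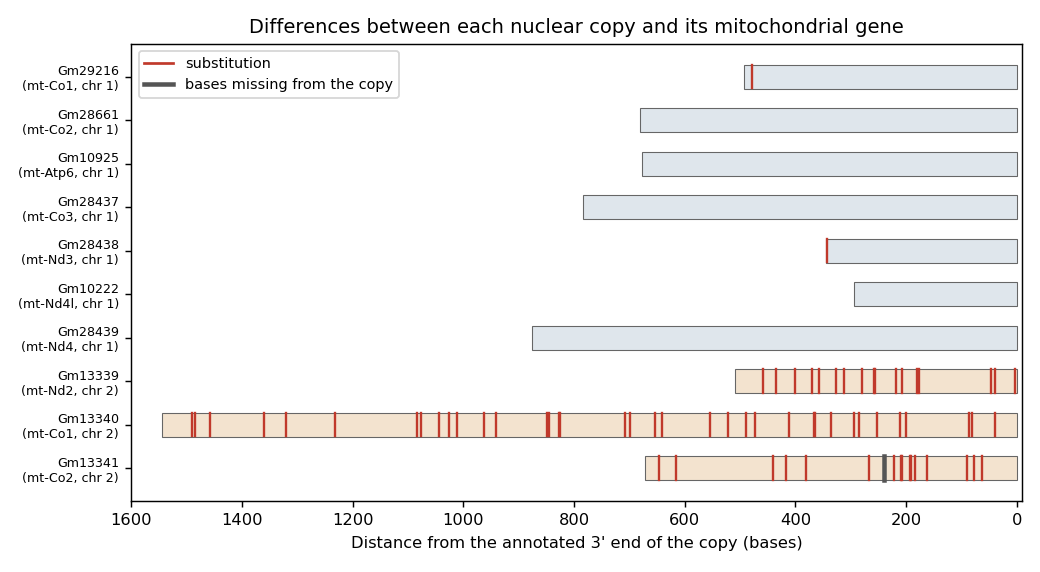
Each bar is a nuclear copy drawn to scale from its annotated 3′ end (right), with distance in bases on the x axis. Grey bars lie on chromosome 1 and tan bars on chromosome 2, red ticks are substitutions relative to the mitochondrial gene in parentheses and the dark tick is a gap. The 7 chromosome 1 copies carry 2 substitutions in all, both at their 5′ side, while the 3 chromosome 2 copies carry 70 spread along their length.

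Library totals ranged from 81117 to 210588 UMIs, and the copies took 9.4 to 13.22% of them in Atf3 high and 12.07 to 15.03% in Atf3 low. The 24 listed mitochondrial genes took 16.87 to 21.24% and 21.89 to 22.63%. Atf3 high replicate 2, the shallowest library, held 16 UMIs of the Y-linked *Ddx3y* and *Eif2s3y* and 0 of *Xist*, against its label of female, so values without it are given where they end a call or move a value by over 1.5 times. *Atf3* itself had 50, 7 and 25 UMIs in Atf3 high replicates 1 to 3, against 35, 0 and 8 in Atf3 low, which overlap. Cardiomyocyte markers were present in every library, but their summed level was lower in Atf3 high (22960 to 44020 CPM) than in Atf3 low (45030 to 59920 CPM), with 9 of 9 tested markers lower and 1, *Myh6*, called. Summed fibroblast markers ranged from 968.9 to 4680 CPM in Atf3 high and 463.1 to 2480 CPM in Atf3 low, and mural markers from 253.4 to 711.4 and 136.2 to 559.3 CPM, with all 6 of each list higher. edgeR and DESeq2 called 0 of these, and 2 fibroblast and 0 mural markers had an unadjusted edgeR p under 0.05, as had 444 of all 7665 genes tested. Endothelial (953.4 to 1230 and 803.5 to 1274 CPM), macrophage (116.4 to 304.9 and 217.9 to 325.4 CPM) and erythrocyte markers (32.61 to 156.9 and 0 to 128 CPM) overlapped between the groups. The part of these shifts in the results on the copies was not tested. In bulk areas, fewer cardiomyocytes and less RNA per cardiomyocyte cannot be told apart.

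The copies were among the most counted rows of the table. By UMIs summed over the 6 libraries *Gm29216* ranked 3 of 17145 with 23303, *Gm13340* ranked 6 with 18898, *Gm28437* ranked 7 with 17049, *Gm10925* ranked 10 with 11007 and *Gm28661* ranked 11 with 10975. *Gm13339* (6706), *Gm28438* (6205) and *Gm13341* (5424) ranked 19, 21 and 23. *Gm28439* ranked 145 with 523 UMIs, and *Gm10222* ranked 1244 with 85, the lowest of the 10. Just outside the rule, the chromosome 1 pseudogenes *Gm28925*, *Gm28926* and *Gm28927*, which resemble *mt-Atp8*, *mt-Atp6* and *mt-Co3* at 80.588 to 81.618% identity, had no row in the table. No count can therefore be given for them. UMIs tag transcript ends, so these counts were not divided by length.

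The first comparison asked whether the copies differed between Atf3 high and Atf3 low areas. Of the 10 copies, 9 had a negative log2 fold change, and 2 were lower in Atf3 high at an adjusted p under 0.05, *Gm13341* and *Gm28438*. Over all 7665 genes tested, 0.0522% were called lower. The median log2 fold change of the copies was −0.43, beside 0.11 over all genes tested, of which 44.8% were below 0. The median of the copies was −0.74 without Atf3 high replicate 2, with all genes at 0.11, and −0.22 with library size scaling, with all genes at 0.31. In 4 copies (*Gm13339*, *Gm13341*, *Gm28438* and *Gm28661*) the highest Atf3 high library was lower than the lowest Atf3 low library, which held for 3.89% of all genes tested. Levels are given in CPM, the UMIs of a gene scaled to a common library total with TMM factors, and fold changes, standard errors (SE) and adjusted p-values come from edgeR's quasi-likelihood test.

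*Gm13341*, the chromosome 2 copy of *mt-Co2*, was at 3069, 3621 and 4094 CPM in Atf3 high and at 13810, 7149 and 9997 CPM in Atf3 low. All Atf3 high libraries were low and the groups did not overlap. The log2 fold change was −1.52 (SE 0.31, adjusted p = 0.02176). *Gm28438*, the copy of *mt-Nd3*, a membrane subunit of complex I, was at 3882, 3560 and 5343 CPM in Atf3 high and at 14970, 8309 and 10640 CPM in Atf3 low. Here too the groups were apart, with a log2 fold change of −1.41 (SE 0.31, adjusted p = 0.04498). Neither call held without Atf3 high replicate 2: *Gm13341* then had −1.54 (edgeR adjusted p = 0.1307) and *Gm28438* had −1.31 (edgeR adjusted p = 0.3812). Both calls were also lost without Atf3 high replicate 1 (−1.42 and −1.34), Atf3 low replicate 1 (−1.30 and −1.20) or Atf3 low replicate 3 (−1.57 and −1.48). The edgeR adjusted p-values were then from 0.318 to 0.6659. Both calls held without Atf3 high replicate 3 (−1.63 and −1.61, edgeR adjusted p = 0.04742 each). They also held without Atf3 low replicate 2 (−1.77 and −1.63, edgeR adjusted p = 0.007096 and 0.01238).

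*Gm28661*, the chromosome 1 copy of *mt-Co2*, which encodes the oxidase subunit that accepts electrons from cytochrome c, was at 8740, 10110 and 10160 CPM in Atf3 high and at 19540, 16450 and 18580 CPM in Atf3 low. The groups were apart and each was tight, yet the log2 fold change of −0.91 (SE 0.28) did not pass over all genes (edgeR adjusted p = 0.471). *Gm13339*, the copy of *mt-Nd2*, was at 5493, 5202 and 6102 CPM in Atf3 high and at 13860, 9469 and 9425 CPM in Atf3 low. Its groups were also apart, with a log2 fold change of −0.96 (SE 0.30, edgeR adjusted p = 0.471). DESeq2, run as an alternative, called these as well, giving *Gm28661* −0.94 (adjusted p = 0.04442) and *Gm13339* −0.99 (adjusted p = 0.04717).

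The 3 most counted copies overlapped between the groups. *Gm29216* was at 21220, 39460 and 20420 CPM in Atf3 high and at 31230, 30440 and 43430 CPM in Atf3 low, so that Atf3 high replicate 2 stood above 2 of 3 Atf3 low libraries. *Gm13340* had the same order, with 17220, 29740 and 17140 CPM against 27300, 23880 and 33390 CPM. *Gm28437*, the copy of *mt-Co3*, was at 17090, 24170 and 17690 CPM and at 23510, 19510 and 28030 CPM. Their log2 fold changes were −0.37 (SE 0.28), −0.40 (SE 0.28) and −0.27 (SE 0.27), none past the test. Without Atf3 high replicate 2 they were −0.76 (SE 0.29), −0.73 (SE 0.29) and −0.46 (SE 0.29), still not past the test (edgeR adjusted p = 0.9289, 0.9381 and 0.9998). The levels of the other Atf3 high libraries lay below all those of Atf3 low. That order comes after the overlapping library was left out, and its share over all genes was not computed. *Gm29216* and *Gm13340* both copy *mt-Co1*, the catalytic subunit of cytochrome c oxidase, from different chromosomes.

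*Gm10925*, the copy of *mt-Atp6*, part of the proton channel of the ATP synthase, was at 11000, 13030 and 13040 CPM in Atf3 high and at 18280, 10400 and 13660 CPM in Atf3 low, with a log2 fold change of −0.19 (SE 0.29) under TMM that turned to 0.03 when scaled by library size alone. *Gm28439*, the copy of the first part of *mt-Nd4*, was at 447.1, 470.7 and 642.8 CPM and at 943.4, 667.4 and 517.5 CPM, with −0.45 (SE 0.39). *Gm10222* had 28, 2 and 22 UMIs in the Atf3 high libraries, against 18, 11 and 4 in Atf3 low. No difference was detectable at this depth, and its log2 fold change of 0.05 (SE 0.62) turned to −0.07 under a replicate block, to −0.41 without Atf3 high replicate 1 and to 0.40 without Atf3 high replicate 2. *Gm10222* and *Gm28439* overlap by a few bases on the same strand, as their parents do.

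**Figure D2:**
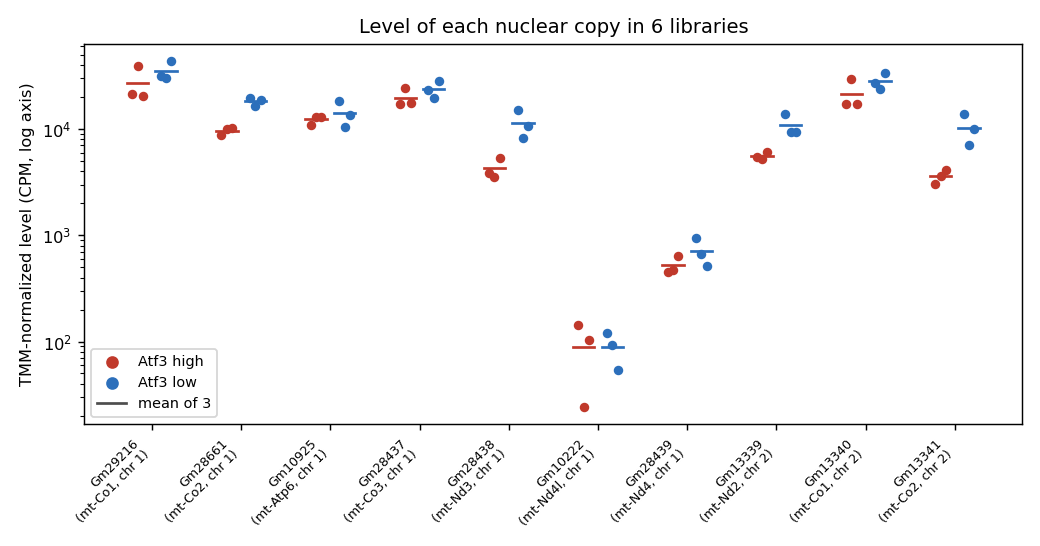
TMM-normalized level in CPM (log axis) of each copy in the 3 Atf3 high (red) and 3 Atf3 low (blue) libraries, with a line at each mean. The groups do not overlap for *Gm28661*, *Gm28438*, *Gm13339* and *Gm13341*, with *Gm13341* at 3069 to 4094 CPM in Atf3 high and 7149 to 13810 CPM in Atf3 low.

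The fold changes of the parents lay on the same side of 0 as those of 9 copies. All 8 had negative log2 fold changes with a median of −0.59, against −0.43 for the copies. edgeR and DESeq2 called 0 of the 8, and 3 had an unadjusted edgeR p under 0.05, beside 444 of all 7665 genes tested. *mt-Nd3* had −1.08 (SE 0.35), *mt-Nd4l* −1.05 (SE 0.67), *mt-Co2* −0.72 (SE 0.28) and *mt-Atp6* −0.68 (SE 0.31). *mt-Co1* (−0.51), *mt-Co3* (−0.46), *mt-Nd4* (−0.44) and *mt-Nd2* (−0.38) lay closer to 0, and *mt-Nd4* went to −0.67 without Atf3 high replicate 2. Of the 37 genes of the mitochondrial genome, 24 were listed, 19 were tested, 15 of these were below 0, and 0 were called by edgeR or DESeq2, with 5 at an unadjusted edgeR p under 0.05. Of the 19, 6 had all Atf3 high libraries below the Atf3 low ones, beside 3.89% of all genes tested, and the median of the 19 was −0.44. *mt-Nd3* and *mt-Co2*, the parents of the called copies, were at 1601, 905.2 and 1984 CPM against 4582, 2336 and 2615 CPM, and at 8638, 7181 and 9125 CPM against 15400, 12860 and 12770 CPM, without overlap.

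Since reads can fall on a copy or its parent, each family was also summed and tested in the place of its members. The *mt-Nd3* family (*mt-Nd3* with *Gm28438*) had 1079, 370 and 1573 UMIs in the Atf3 high libraries, against 2902, 1276 and 973 in Atf3 low, with a log2 fold change of −1.33 (SE 0.31, edgeR adjusted p = 0.1045). The *mt-Co2* family, with *Gm28661* and *Gm13341*, had −0.97 (SE 0.27, edgeR adjusted p = 0.3964). The other families ranged from −0.34 for *mt-Atp6* to −0.58 for *mt-Nd2*. All 8 were below 0. edgeR called 0 of the 8, with 3 at an unadjusted p under 0.05, beside 444 of all 7665 genes tested before summing. DESeq2, added here after the data were seen, called the *mt-Nd3* sum (−1.36, adjusted p = 0.004022) and the *mt-Co2* sum (−0.999, adjusted p = 0.02401). Before summing, DESeq2 called 12 of 7665 genes. The shares over all rows of the summed table were not computed. The *mt-Nd3* sum also passed in edgeR with a replicate block (−1.32, adjusted p = 0.00125), and when Atf3 low replicate 2 was left out (−1.56, adjusted p = 0.03188). Without Atf3 high replicate 2, where no sum passed, the *mt-Co1* sum went from −0.41 to −0.70, the *mt-Nd4* sum from −0.44 to −0.66 and the *mt-Nd4l* sum from −0.47 to −0.10.

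**Figure D3:**
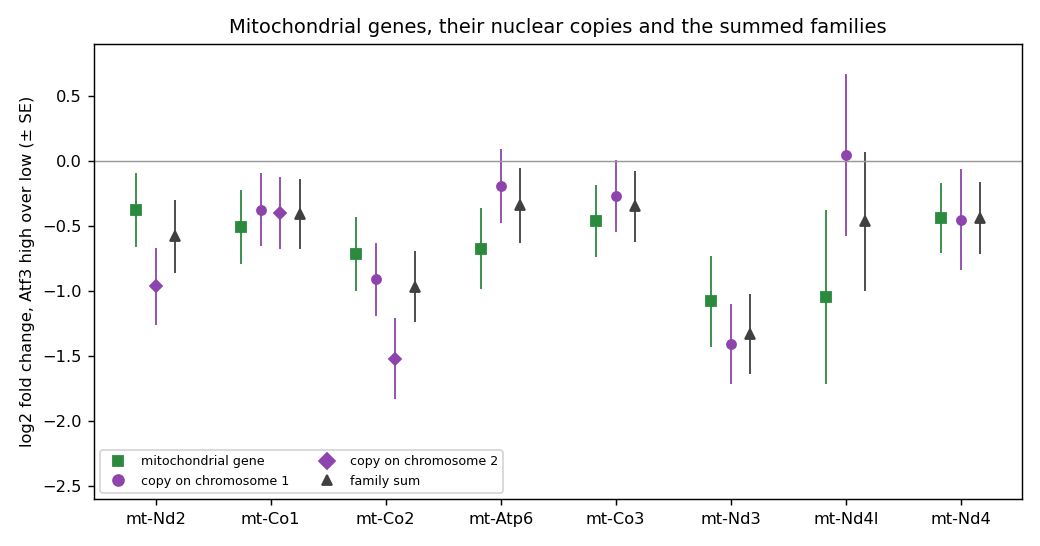
The log2 fold change (Atf3 high over Atf3 low, edgeR, bars ± SE, n = 3 per group) is drawn for each mitochondrial gene (green squares), its copies on chromosome 1 (purple circles) or chromosome 2 (purple diamonds) and the family sum (black triangles). *Gm13341* at −1.52 lies below *mt-Co2* at −0.72, and the sums lie between −1.33 and −0.34.

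The next comparison asked how the UMIs of a family were divided between copy and parent, which does not depend on scaling between libraries. Over the 8 families together the copies took 55.86, 61.22 and 56.36% of the copy and parent UMIs in Atf3 high, a mean of 57.82% ± 2.961 (SD, n = 3). In Atf3 low they took 57.43, 57.51 and 61.46%, a mean of 58.8% ± 2.305 (SD, n = 3). The groups overlapped and the difference was −0.98 percentage points (exact two-sided permutation test, p = 0.5). Without Atf3 high replicate 2 it was −2.69 points, and without Atf3 low replicate 3 it was 0.35. With 3 libraries against 3 the smallest p this test allows is 0.1, so no share could pass 0.05. The shallowest library of each group had the highest share.

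Within families the shares of 10 copies were compared, and 4 did not overlap between the groups, each at p = 0.1 (exact two-sided permutation test, 3 against 3). Any full separation of the groups gives this p. In levels, 840 of all 7665 genes tested did not overlap in either direction, and no such rate was computed for shares. After Benjamini-Hochberg adjustment over the 10 copies, each of the 4 permutation p-values was 0.25. Shares carry Wilson 95% intervals, which cover counting error only. *Gm13341* took 15.01% (13.94 to 16.15), 17.31% (15.6 to 19.16) and 17.51% (16.49 to 18.59) of the *mt-Co2* family in Atf3 high, and 28.33% (27.31 to 29.38), 19.61% (18.46 to 20.81) and 24.18% (22.69 to 25.73) in Atf3 low. Every Atf3 high share was below every Atf3 low share, and the interval of Atf3 low replicate 2 overlapped those of 2 Atf3 high libraries. *Gm13339* took 30.64, 26.94 and 32.55% of the *mt-Nd2* family in Atf3 high, against 38.11, 37.65 and 42.74% in Atf3 low, which differs by −9.46 points. The difference for *Gm13341* was −7.43 points.

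The other shares that stood apart were higher in Atf3 high. *Gm10925* took 73.44, 76.0 and 69.38% of the *mt-Atp6* family in Atf3 high, against 64.05, 67.51 and 66.56% in Atf3 low, higher by 6.90 points. *Gm10222* took 64.81% ± 3.208 (SD, n = 3) of the *mt-Nd4l* family in the Atf3 high libraries, against 46.48% ± 7.705 (SD, n = 3) in Atf3 low. In Atf3 high replicate 2 that share rested on 3 UMIs, with an interval from 20.77 to 93.85%. With each library left out in turn, the differences ranged from −9.64 to −5.28 points for *Gm13341*, from −10.7 to −7.83 for *Gm13339*, from 5.37 to 8.68 for *Gm10925* and from 15.1 to 22.6 for *Gm10222*. The 3 chromosome 2 copies thus split, since *Gm13339* and *Gm13341* had lower shares and *Gm13340* had 36.57% ± 1.225 against 36.52% ± 0.8654 (SD, n = 3 each, exact permutation p = 1.0).

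The remaining shares overlapped. *Gm28438*, although called by level, took 70.81, 79.73 and 72.92% of the *mt-Nd3* family in Atf3 high, against 76.57, 78.06 and 80.27% in Atf3 low (exact permutation p = 0.3, n = 3 each). The level of its parent did not overlap between the groups either. *Gm28437* took 61.28% ± 2.697 and 58.26% ± 0.9848 of the *mt-Co3* family (SD, exact permutation p = 0.2). *Gm28661* took 44.85% ± 3.055 and 43.38% ± 2.853 of the *mt-Co2* family, and *Gm29216* took 45.76% ± 3.796 and 45.3% ± 3.737 of the *mt-Co1* family (SD, exact permutation p = 0.6 and 0.9). *Gm28439* took 2.086% ± 0.6997 and 2.042% ± 0.7 of the *mt-Nd4* family (SD, exact permutation p = 0.8). Without Atf3 high replicate 2 the differences in share, in points, were −6.44 for *Gm28438*, 1.52 for *Gm28437*, −0.28 for *Gm28661*, −1.73 for *Gm29216*, −0.56 for *Gm13340* and 0.38 for *Gm28439*.

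The shares also differed widely among copies that are identical to their parents. *Gm10925*, *Gm28437* and *Gm28661* took more UMIs than their parents in all 6 libraries, whereas *Gm28439* stayed below 3% in each. The families of *Gm28661* and *Gm29216* hold another copy, so their shares are not on the same footing as those of copies alone with their parent. *Gm28439* is the copy that lacks the 3′ end of its parent, since it covers the first 876 of 1378 bases of *mt-Nd4*. *mt-Nd4* itself held 23336 UMIs, beside 523 for *Gm28439*. *Gm13339* and *Gm29216*, which are not identical to their parents and cover only the last part of them, took shares of 26.94 to 42.74% and 41.35 to 50.15%. Whether the part of the parent that a copy covers bears on its share was not tested.

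**Figure D4:**
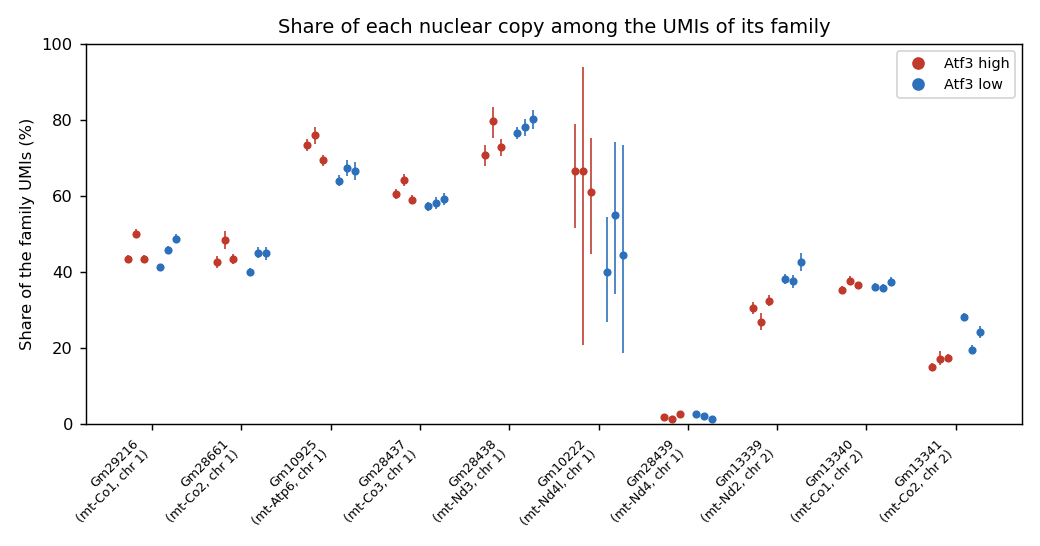
The share (%) of each copy among the UMIs of its family is drawn per library, Atf3 high in red and Atf3 low in blue, with Wilson 95% intervals as bars. *Gm13339* and *Gm13341* are lower and *Gm10925* and *Gm10222* higher in all Atf3 high libraries, *Gm10222* with wide intervals, and *Gm28439* stays below 3%.

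Copies of the same parent could be set against each other. *Gm13341* had 35.12, 35.8 and 40.3 UMIs per 100 of *Gm28661* in Atf3 high, against 70.69, 43.46 and 53.81 in Atf3 low, which did not overlap (exact permutation p = 0.1, n = 3 each). *Gm13340* had 81.11, 75.35 and 83.96 UMIs per 100 of *Gm29216* in Atf3 high, against 87.42, 78.43 and 76.89 in Atf3 low, which overlapped (exact permutation p = 0.9, n = 3 each). Over all copies, the chromosome 1 block took 70.72% ± 0.4765 of the copy UMIs in Atf3 high areas, against 67.62% ± 1.1 in Atf3 low (SD, n = 3 each, exact permutation p = 0.1).

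The counts of the most abundant copies did not rise in step with the library totals. Atf3 high replicate 3 held 2.596 times the UMIs of Atf3 high replicate 2, but *Gm29216* held 1.34 times as many, *Gm13340* 1.494 and *Gm28437* 1.896. *Gm10925* (2.593) and *Gm28661* (2.603) followed the totals, and *Gm13339* (3.039), *Gm13341* (2.93) and *Gm28438* (3.888) rose by more. In Atf3 low, replicate 1 held 2.094 times the UMIs of replicate 3. There *Gm29216* (1.453), *Gm13340* (1.653) and *Gm28437* (1.695) lagged again. *Gm28661* (2.126) followed the totals, and *Gm10925* (2.704), *Gm13339* (2.973), *Gm13341* (2.793) and *Gm28438* (2.845) rose by more. *mt-Rnr2*, a mitochondrial rRNA and the most counted mitochondrial gene, had ratios of 1.269 and 1.337. The largest count of any row was between 3634 and 5314 UMIs in every library, and all rows above 2000 UMIs were mitochondrial genes or copies in 5 libraries, with 12 of 14 in Atf3 high replicate 3. Atf3 high replicate 2 is the library with Y-linked UMIs, and its mitochondrial genes took 21.24% of its UMIs, against 16.87% in replicate 3. Depth and these differences cannot be told apart between those libraries. The part of the uneven rise of counts in the fold changes was not tested.

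**Figure D5:**
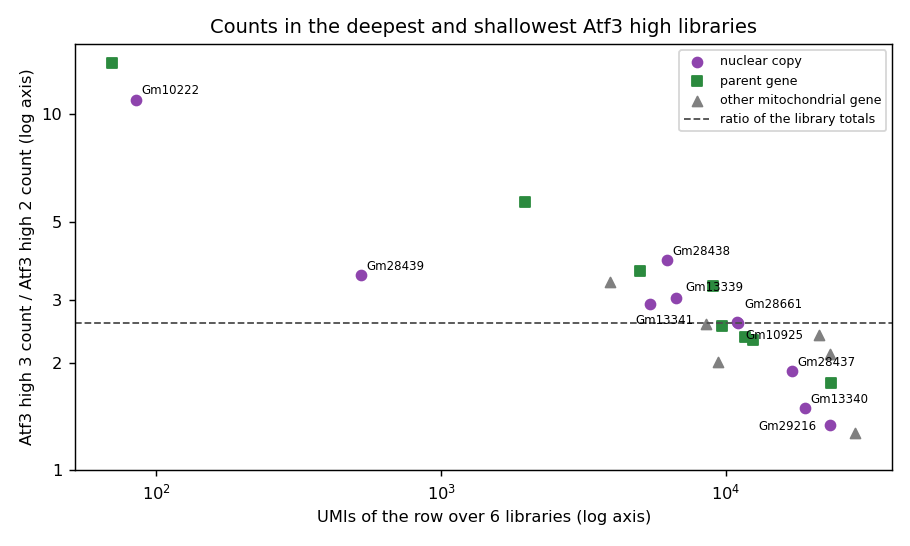
Each point is a row of the table, with its UMIs over 6 libraries on the x axis (log) and the ratio of its count in Atf3 high replicate 3 to that in replicate 2 on the y axis (log). The dashed line is the ratio of the library totals, 2.596. *Gm29216* (1.34) and *Gm13340* (1.494) lie below the line and *Gm28438* (3.888) above it.

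Libraries of like depth were therefore set side by side, a choice made after the data were seen. Atf3 high replicate 2 and Atf3 low replicate 3 had totals in a ratio of 0.9902. Between them *Gm28438* had a ratio of 0.3777, *Gm13341* 0.4087, *Gm28661* 0.6144 and *Gm13339* 0.6228, while *Gm29216* had 1.025, *Gm13340* 1.005 and *Gm28437* 0.9733. Atf3 high replicate 1 and Atf3 low replicate 1 had totals in a ratio of 1.078. There *Gm13341* had 0.2946, *Gm28438* 0.3438, *Gm13339* 0.5255 and *Gm28661* 0.5931, and *Gm29216* had 0.9012. For the 4 copies without overlap the direction in any such pair follows from that choice. *Gm29216* lay just above the ratio of totals in the first and below it in the second. Each pair is 1 library against 1 and carries no test.

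The copies were set beside RNAs known to stay in the nucleus, as a list of chromosomal transcripts. *Neat1*, an architectural RNA of paraspeckles, had 0.02 (SE 0.38) and *Malat1*, a nuclear speckle RNA, −0.26 (SE 0.54). *Kcnq1ot1* had 1.34 (SE 0.67), *Meg3* −0.67 (SE 0.95) and *Mhrt* −0.38 (SE 0.58). Of these 5, 3 were below 0 and their median was −0.26. edgeR and DESeq2 called 0 of them, and 0 had an unadjusted edgeR p under 0.05. The summed level of the 5 ranged from 1555 to 2655 CPM in Atf3 high and from 936.7 to 3128 CPM in Atf3 low.

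The summed copies were at 88300, 129400 and 94730 CPM in Atf3 high and at 163600, 126400 and 167700 CPM in Atf3 low. Atf3 high replicate 2 overlapped with Atf3 low replicate 2. The tested genes outside the mitochondrial families whose pattern over the 6 libraries was most like this sum, by root mean square difference of centred log2 (CPM + 4), were *Eci2* (0.137), an enzyme of fatty acid oxidation, *Ndufa2* (0.143), a complex I subunit, the unnamed ENSMUSG00000095891 (0.15), *Higd2a* (0.164), a respiratory supercomplex factor, and *Dld* (0.175), a subunit of pyruvate dehydrogenase. They were chosen by this likeness, so it is a description over 6 libraries and carries no test. *Eci2* lay at 50.81 to 109 CPM and *Higd2a* at 66.06 to 141.5 CPM over the 6 libraries. In Atf3 high replicate 2, 1 UMI came to 12.33 CPM before TMM factors, so few UMIs carry the patterns of *Eci2* and *Higd2a*.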

How the data were processed

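The authors made CEL-seq2 libraries from photo-isolated areas, sequenced them on a NovaSeq6000 and mapped the reads to GRCm38. The submitters' processing notes name HISAT2 (2.1.0), UMI-tools (1.0.0) and featureCounts (1.6.4). The deposited values are raw UMI counts per gene and library, not normalized. The UMI length and the handling of reads that match several genes are not given in the sources used here, and both bear on these rows.

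Genes with at least 10 UMIs over the 6 libraries (7665 of 17145) were scaled by TMM and tested with edgeR (4.0.16, quasi-likelihood, R 4.3.3), with Benjamini-Hochberg adjustment over all genes and a threshold of 0.05. DESeq2 (1.42.0), other scalings and filters, a replicate block and leaving out each library were alternatives. Parents were assigned with BLAST+ (2.17.0) of GENCODE transcripts at 90% identity over 100 bases, and 95% gave the same parents. Shares were compared by exact permutation of all splits (scipy 1.17.1), with Wilson 95% intervals. The fit was tested on simulated data. The members and lists were chosen with earlier results of these data known. Genes named are the 10 copies, their parents, 5 nuclear RNAs and the 5 genes most like the summed copies. *Ddx3y*, *Eif2s3y*, *Xist*, *Myh6*, *mt-Rnr2* and the pseudogenes outside the rule were named after their values were seen.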

Additional observations from a re-analysis of the deposited data

Results flagged for a closer look

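Annotated copies of mitochondrial genes outside chromosomes 1 and 2 also held UMIs, in rows that enter none of the comparisons above. At 80% identity or more over 100 bases, 19 further annotated copies were found, of which 6 had a row, with 446 UMIs in all. *Gm11408*, a processed pseudogene of *mt-Nd6* on chromosome 4, held 225 UMIs, or 2.583% of those of copy and parent. *Gm4076*, a copy of *mt-Nd5* on chromosome 13 with 95.178% identity, held 114 (2.824%), and *Gm11407*, another copy of *mt-Nd5*, on chromosome 4 with 92.344% identity, held 95 (2.364%). *Gm11410*, a copy of *mt-Cytb* on chromosome 4, held 10 (0.04322%). These were above the 3 UMIs that a count of 0 allows, while *Gm43743* and *Gm48258* held 1 UMI each. The UMIs were spread over both groups, with 103 in Atf3 high and 122 in Atf3 low for *Gm11408*.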

How the results depend on the processing

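Of 130 log2 fold changes of single copies under the alternatives, 113 kept their direction and side of the threshold, as did 103 of 104 of the parents and 84 of 88 family sums. A row uncalled in the main edgeR fit and still uncalled counts as kept, so these tallies say little about the calls. In 10 of the 130 a call was lost, each time for *Gm13341* or *Gm28438*. Of 80 differences in share, for which no threshold could be passed, 71 kept their direction. edgeR called 7 genes, and DESeq2 called 12. The 2 copies called became 1 with library size scaling (*Gm13341*, with *Gm28438* at −1.19, adjusted p = 0.1093), 1 with no filter (*Gm28438* at −1.33, adjusted p = 0.05237) and 4 with DESeq2. DESeq2 also moved the sums of *mt-Nd3* (−1.36) and *mt-Co2* (−0.999) past the threshold. Library size scaling moved the median of all genes to 0.31 and no filter to 0.35, from 0.11. Leaving out each library gave 0 to 11 called genes and 0 to 2 called copies, and family sums from −1.56 to −1.07 for *mt-Nd3* and from −1.11 to −0.87 for *mt-Co2*.

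The replicate block called 24 genes, 2 copies among them, moved the *mt-Nd3* sum past the threshold (−1.32, adjusted p = 0.00125) and *mt-Nd3* itself (−1.09, adjusted p = 0.04953), and left every other copy, parent and sum on its side of the threshold. Deviations of libraries with the same replicate number correlated at 0.085, 0.001 and 0.066. Genes with as few as 10 UMIs over the 6 libraries enter these correlations. Low values therefore cannot decide whether the numbers pair the libraries.

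Directions turned for *Gm10925* with library size scaling (0.026), for *Gm10222* under the replicate block (−0.066) and, on leaving out a library, for *Gm10222* (from −0.41 to 0.40). The same held for the differences in share, in points, of *Gm13340* (from −0.56 to 0.67), *Gm28439* (from −0.32 to 0.38), *Gm28661* (from −0.28 to 2.53), *Gm29216* (from −1.73 to 2.20) and all copies together (from −2.69 to 0.35). The cause was not tested. Depth limits *Gm10222* most, and 3 libraries per group limit every share.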
